A study of Mus musculus with 20 samples.

Results

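The colony-stimulating factors are secreted proteins that keep myeloid cells alive and drive their production, and this account follows the genes of 4 ligands and 2 receptor chains in mouse pancreatic tumours. The members were the rows of the deposited count table whose gene symbol was Csf1, Il34, Csf2, Csf3, Csf2ra or Csf2rb, which gave 6 of 46983 genes. All tumours were grown from KPC cells, a line of mouse pancreatic cancer cells, injected into the pancreas of C57BL/6 mice and collected at 2 weeks without treatment. Hosts were wild type (WT) or lacked the cytokine interleukin 33 (IL33-/-, called IL33KO here), so the genotype is that of the host and not of the injected cancer cells. RNA came either from leukocytes that had been pulled out of the dissociated tumour with CD45 magnetic beads ("sorted") or from bulk tumour, with 5 libraries for each material in each host genotype. The age of the animals is not given in the sources used here, and the labels do not tie libraries to mice, so p-values measure the spread between libraries, which may in part be technical.

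CSF1 (macrophage colony-stimulating factor) and IL-34 are separate ligands of 1 receptor, CSF1R, which macrophages and monocytes carry. CSF2 (GM-CSF) binds an alpha chain encoded by Csf2ra, and the pair then joins the signalling beta chain encoded by Csf2rb, which interleukin 3 and interleukin 5 receptors also use with their own alpha chains. Mice hold a second beta chain gene, Csf2rb2, whose product serves interleukin 3. CSF3 (G-CSF) acts through CSF3R and is known for driving neutrophil production. In pancreatic cancer, GM-CSF from tumour cells is known for drawing in and shaping myeloid cells, and CSF1R signalling for maintaining tumour macrophages.

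The stretches of 250 bases just upstream of the start sites of Csf1, Csf2ra and Csf2rb2 are shown. These genes were all higher in sorted leukocytes than in bulk tumour in both host genotypes. The sequences are RefSeq's on GRCm38.p6, read 5′ to 3′ on the minus strand that carries all 3 genes, from chr3:107760470-107760719, chr19:61228419-61228668 and chr15:78305722-78305971. Capitals mark letters that match 1 of 3 motifs searched on both strands.
Csf1: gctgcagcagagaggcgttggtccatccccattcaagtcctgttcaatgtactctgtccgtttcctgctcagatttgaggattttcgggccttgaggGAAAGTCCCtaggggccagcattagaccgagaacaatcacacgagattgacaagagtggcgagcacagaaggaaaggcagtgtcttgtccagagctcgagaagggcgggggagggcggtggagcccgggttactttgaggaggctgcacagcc
Csf2ra: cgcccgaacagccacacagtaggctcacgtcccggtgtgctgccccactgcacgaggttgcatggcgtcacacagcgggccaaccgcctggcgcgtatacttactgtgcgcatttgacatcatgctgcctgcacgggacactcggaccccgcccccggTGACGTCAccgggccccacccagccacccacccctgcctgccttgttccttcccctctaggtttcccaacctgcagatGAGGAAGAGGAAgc
Csf2rb2: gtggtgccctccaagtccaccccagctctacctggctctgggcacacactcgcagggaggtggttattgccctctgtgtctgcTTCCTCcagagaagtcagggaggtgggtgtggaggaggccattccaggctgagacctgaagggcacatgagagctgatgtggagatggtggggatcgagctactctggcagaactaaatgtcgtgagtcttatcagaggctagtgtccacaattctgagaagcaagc
The Csf1 stretch holds 1 NF-kB site (GGGACTTTC, here on the opposite strand) whose first base lies 153 bases before the start site, and 0.289% of 32851 RefSeq stretches of this length hold that motif. The Csf2ra stretch holds a cAMP response element (TGACGTCA), found in 1.55% of stretches, 92 bases before the start site. It also ends in a pair of adjacent copies of the core bound by PU.1 (GAGGAA), the myeloid transcription factor encoded by Spi1, starting 14 and 8 bases before the start site. The GENCODE start of Csf2ra, at 61228429, lies within this stretch. The core at 8 bases is therefore inside the GENCODE gene, and the core at 14 bases spans its start. The Csf2rb2 stretch holds 1 such core on the opposite strand, 167 bases before the start site, and 23.3% of all stretches hold at least 1. The Csf2 stretch (chr11:54249900-54250149) held none of the 3 motifs. It does not reach the GENCODE start of Csf2 at 54249667, and the bases between were not searched. These matches describe letters only.

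Each library held 51.3 to 81.0 M (mega) counts in genes, and values are given as CPM (counts per M counts) after scaling with TMM factors over all 20 libraries. For a gene without counts, 3 counts would stand for 0.0327 to 0.0686 CPM, which covers counting error only. The summed level of 5 general leukocyte markers was 5560 to 7558 CPM in sorted and 450.0 to 956 CPM in bulk libraries, none of the 5 being at 0 in any group. Sorted libraries were not free of epithelial RNA, since 8 epithelial markers summed to 1087 to 2867 CPM there and to 6634 to 10068 CPM in bulk. Il33 itself was counted in every group, with 5.76 to 20.5 CPM in sorted WT, 14.3 to 25.7 in sorted IL33KO, 53.6 to 66.6 in bulk WT and 37.0 to 56.3 in bulk IL33KO, so these gene-level counts do not check the host labels. Summed acinar (digestive enzyme) markers stood apart in sorted IL33KO 3, at 47036 CPM against 722 to 8021 CPM in the other sorted libraries, and in bulk WT 5, at 9715 CPM.

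In WT hosts all 6 members differed between sorted leukocytes and bulk tumour, 4 being higher and 2 lower in the sorted cells (edgeR, Benjamini-Hochberg adjusted p under 0.05). This contrast touches most genes, since 68% of 18145 genes tested passed, 33.7% higher and 34.3% lower. In IL33KO hosts 5 of 6 members passed, 3 higher and 2 lower, against 63% of all genes, 31.3% higher and 31.7% lower. In bulk samples, fewer cells of a type and less RNA per cell cannot be told apart. Between host genotypes no member passed edgeR's test in either material, and the share of all genes that passed was 0.012% of 16731 in sorted and 0% of 17258 in bulk libraries.

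**Figure D1:**
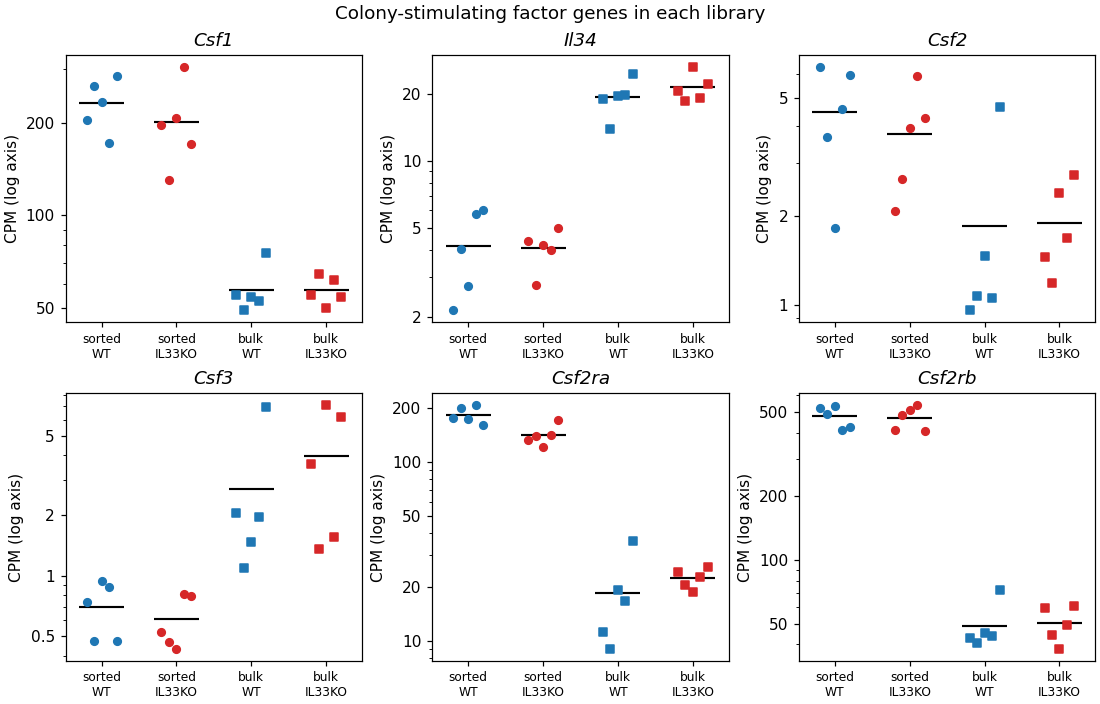
CPM of each member in each of 20 libraries, on a log axis, with 5 libraries a group (circles sorted, squares bulk, blue WT, red IL33KO) in replicate order and a bar at the arithmetic mean. Csf1, Csf2ra and Csf2rb are higher in every sorted library than in every bulk library, Il34 and Csf3 are lower in every sorted library, and bulk WT 5 is the highest of the bulk WT libraries in all 6 panels.

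Csf1 (chr3:107741048-107760469, minus strand, GRCm38) encodes macrophage colony-stimulating factor. Its levels in sorted WT 1 to 5 were 205, 263, 233, 173 and 284 CPM, and in sorted IL33KO 1 to 5 they were 196, 130.3, 208, 304 and 171 CPM. The sorted groups overlapped, and the highest and the lowest of the 10 libraries both came from IL33KO hosts. Bulk WT libraries held 55.1, 49.2, 54.4, 52.7 and 75.2 CPM, and bulk IL33KO libraries 55.0, 64.7, 49.8, 61.5 and 54.3 CPM. Every sorted library lay above every bulk library, and bulk WT 5 stood above the other 9 bulk libraries. Csf1 was 4.04-fold higher in sorted than in bulk WT material (log2 2.01 ± 0.19, SE; edgeR adjusted p = 2.30e-08) and 3.54-fold higher in IL33KO hosts (log2 1.82 ± 0.19; edgeR adjusted p = 1.18e-07). Its mean was 202 ± 64.3 CPM (SD, n = 5) in sorted IL33KO and 232 ± 44.7 CPM in sorted WT libraries, a log2 difference of -0.19 with a 95% interval of -0.65 to 0.28 (edgeR adjusted p = 0.754). In bulk tumour the log2 difference was -0.02, with an interval of -0.29 to 0.25.

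Il34 (chr8:110741829-110805924, minus strand) encodes the other CSF1R ligand, and its levels ran opposite to those of Csf1 between the materials. Sorted WT libraries held 2.14, 4.01, 2.75, 5.78 and 6.04 CPM, and sorted IL33KO libraries 4.36, 2.76, 4.19, 4.00 and 4.98 CPM. Bulk WT libraries held 18.9, 13.9, 19.6, 19.7 and 24.6 CPM, and bulk IL33KO libraries 20.6, 18.6, 26.4, 19.1 and 22.2 CPM. The lowest bulk library held more Il34 than the highest sorted library. Il34 was 4.67-fold lower in sorted than in bulk material of WT hosts (log2 -2.22 ± 0.25, SE) and 5.27-fold lower in IL33KO hosts (log2 -2.40 ± 0.25), with edgeR adjusted p = 2.07e-07 and 1.28e-07. Beside this, 7 of 8 epithelial markers were lower in sorted WT material, with a median log2 difference of -2.07, and whether the Il34 counts of sorted libraries come from carried-over epithelial cells was not tested. Between genotypes the log2 difference was -0.02 in sorted (95% interval -0.67 to 0.63) and 0.14 in bulk libraries (-0.20 to 0.49). True differences within these bounds remain possible at this spread. The ratio of Csf1 to Il34 per kb of exon was 24.0 ± 9.97 (SD) in sorted WT and 18.7 ± 5.73 in sorted IL33KO libraries (exact two-sided permutation p = 0.437, 1 of 6 ratio tests, unadjusted), and 1.11 ± 0.124 and 1.02 ± 0.235 in bulk. Of its exon bases, 4.95% overlap genes on the other strand, and the strand setting of the counting is not given in the sources used here.

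Csf2 (chr11:54247271-54249667, minus strand), the GM-CSF gene, was sparse in every group. Sorted WT libraries held 6.34, 3.69, 1.82, 4.57 and 5.96 CPM, which came from 96 to 299 counts, and sorted IL33KO libraries 2.07, 2.66, 3.93, 5.90 and 4.25 CPM. Bulk WT libraries held 0.959, 1.07, 1.46, 1.06 and 4.64 CPM, and bulk IL33KO libraries 1.45, 1.18, 2.37, 1.68 and 2.75 CPM. Bulk WT 5 reached the level of sorted libraries while the other 4 bulk WT libraries stayed under every sorted one, so the sorted and bulk WT groups overlapped through that library. The gene was 2.43-fold higher in sorted WT than in bulk WT material (log2 1.28 ± 0.44, SE; edgeR adjusted p = 0.0149), and without bulk WT 5 the log2 difference was 1.97 (edgeR adjusted p = 0.00011). In IL33KO hosts the log2 difference was 1.00 ± 0.44 and missed the threshold (edgeR adjusted p = 0.0546). That call turned on the fit: it passed with DESeq2 (adjusted p = 0.0338), with limma voom (0.00256) and in edgeR without bulk WT 5 (0.0130), and leaving out sorted WT 3, sorted IL33KO 1, sorted IL33KO 2 or bulk IL33KO 5 also brought it under 0.05 (0.0419, 0.0356, 0.0499 and 0.0397). The IL33KO against WT log2 difference was -0.24 in sorted (95% interval -1.04 to 0.56) and 0.03 in bulk libraries (-0.997 to 1.07), both wide. Without bulk WT 5 the bulk value was 0.72 (edgeR adjusted p = 0.166). Of the exon bases of Csf2, 12.0% overlap a gene model on the other strand.

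Csf3 (chr11:98701263-98703629, plus strand), the G-CSF gene, was the least abundant member in the sorted cells, with 0.742, 0.472, 0.948, 0.884 and 0.471 CPM in WT and 0.527, 0.468, 0.435, 0.812 and 0.794 CPM in IL33KO libraries. These values rest on 19 to 50 counts each. Bulk WT libraries held 2.06, 1.10, 1.48, 1.96 and 6.97 CPM, and bulk IL33KO libraries 3.62, 1.37, 7.06, 1.57 and 6.20 CPM. All bulk libraries lay above all sorted ones, and within bulk the libraries of both genotypes split into 3 at 6.20 to 7.06 CPM and 7 at 1.10 to 3.62 CPM. Csf3 was 3.85-fold lower in sorted than in bulk WT material (log2 -1.94 ± 0.51, SE; edgeR adjusted p = 0.00251) and 6.48-fold lower in IL33KO hosts (log2 -2.70 ± 0.53; edgeR adjusted p = 0.000203). Without bulk WT 5 the log2 difference in WT hosts was -1.23 (edgeR adjusted p = 0.0156), and limma voom gave -1.72 in IL33KO hosts. Between genotypes Csf3 averaged 3.96 ± 2.61 CPM in bulk IL33KO and 2.71 ± 2.41 CPM in bulk WT libraries (SD, n = 5), a log2 difference of 0.55 with an interval of -0.77 to 1.87 (edgeR adjusted p = 0.775). That value was 1.26 without bulk WT 5 (edgeR adjusted p = 0.162). In sorted libraries it was -0.19, from -0.85 to 0.46.

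The bulk libraries with the most Csf3 were those with acinar transcripts, a grouping noticed after the values were seen and therefore not tested. Summed acinar markers reached 9715 CPM in bulk WT 5, 1814 CPM in bulk IL33KO 3 and 169.9 CPM in bulk IL33KO 5, against 24.6 to 41.7 CPM in the other 7 bulk libraries. The same 3 libraries had the highest bulk levels of Csf3, Csf2 and Il34. With the mean log2 level of the acinar markers as a covariate, an alternative chosen after seeing the data, the bulk IL33KO against WT log2 difference of Csf3 was 0.64 ± 0.27 (SE; edgeR unadjusted p = 0.0383, adjusted p = 0.259) and that of Csf2 was 0.31 ± 0.22. In the sorted library richest in acinar transcripts, sorted IL33KO 3, Csf3 was 0.435 CPM, the lowest of the 20 libraries.

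**Figure D2:**
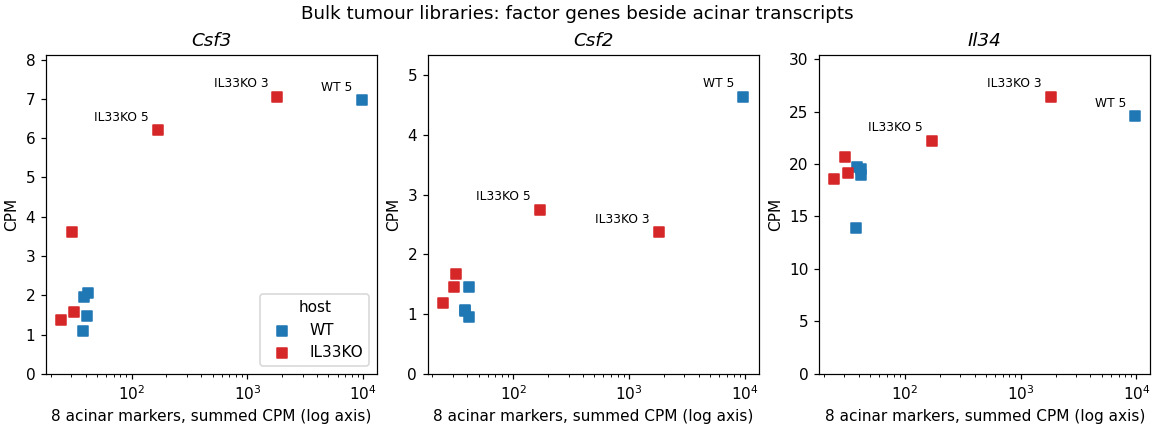
CPM of Csf3, Csf2 and Il34 (linear axes from 0) against the summed CPM of 8 acinar markers (log axis) in the 10 bulk libraries, blue WT and red IL33KO, each point 1 library. The 3 labelled libraries have acinar sums of 169.9 to 9715 CPM and the highest level of each gene, and the other 7 lie at 24.6 to 41.7 CPM.

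Csf2ra (chr19:61223957-61228429, minus strand), which encodes the ligand-binding alpha chain of the GM-CSF receptor, gave the clearest separation of genotypes among the members without passing the test. Sorted WT libraries held 176, 199, 174, 207 and 162 CPM, and sorted IL33KO libraries 132, 139.8, 122, 141 and 171 CPM. All IL33KO libraries lay under the WT median, 4 of them under every WT library, and only IL33KO 5 reached into the WT range. The mean was 141 ± 18.3 CPM in IL33KO and 183 ± 18.8 CPM in WT libraries (SD, n = 5), a log2 difference of -0.37 ± 0.11 (SE; 95% interval -0.60 to -0.13). In edgeR's quasi-likelihood test the unadjusted p was 0.00532, which ranked 412 of 16731 genes, and the adjusted p was 0.214. DESeq2, which called 3.38% of all genes here, called it (log2 -0.37, adjusted p = 0.0283), and limma voom, which called 2.35%, did not (adjusted p = 0.0616). Over 19 alternatives the log2 difference stayed between -0.44 and -0.32. The exact two-sided permutation p over libraries was 0.0159, unadjusted, with 0.00794 the smallest that 5 against 5 libraries can give, and 12 such tests were run over the members. Across all genes, 12.9% had an unadjusted edgeR p under 0.05 in this comparison.

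Markers of macrophages, which carry the GM-CSF receptor, stood lower in the same sorted libraries. The summed level of 10 macrophage markers was 17319 to 20761 CPM in sorted WT and 10604 to 16219 CPM in sorted IL33KO libraries, without overlap, and the highest IL33KO library was again IL33KO 5. All 10 markers had a negative log2 difference, with a median of -0.34 against 0.02 over all genes tested. None passed edgeR's test, and 5 had an unadjusted p under 0.05, where 12.9% of all genes did. DESeq2, which called 3.38% of all genes, called 5 of 10 (the complement genes C1qa, C1qb and C1qc, Apoe and Trem2), all lower. It did not call Adgre1, Cd68, Mertk, Mrc1 or Fcgr1. Limma voom, which called 2.35%, called C1qc, Apoe and Trem2, all lower. None of the 10 was at 0 in any group. The marker lists were chosen with earlier results of these data known, and a sum weighs the most abundant markers most. By sign, markers of monocytes and dendritic cells mostly went the other way in sorted libraries, while their sums overlapped between genotypes. Of 6 monocyte markers 6 were above 0, with a median log2 difference of 0.17. Their sum was 1512 to 2711 CPM (median 1768) in WT and 1131 to 4732 CPM (median 1672) in IL33KO libraries. The highest was IL33KO 3, and the other IL33KO libraries held 1131 to 2157 CPM. Of 8 dendritic cell markers 6 were above 0, with a median of 0.08. Their sum was 268 to 335 CPM (median 297) in WT and 246 to 405 CPM (median 270) in IL33KO libraries. No marker of these 2 lists passed in edgeR, DESeq2 or limma voom there. Of 10 neutrophil markers, 4 were above 0 in sorted libraries, with a median log2 difference of -0.22. None of them passed edgeR's test, and DESeq2 and limma voom each called 1, G0s2, as lower. The neutrophil markers summed to 3996 to 8386 CPM in WT and to 2900 to 17857 CPM in IL33KO libraries. The part of macrophage or neutrophil content in the Csf2ra values was not tested.

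In bulk tumour Csf2ra was 11.2, 9.05, 19.2, 16.6 and 36.3 CPM in WT and 24.3, 20.5, 18.7, 22.7 and 26.0 CPM in IL33KO libraries. The WT libraries spread to both sides of a narrow IL33KO group, and all IL33KO libraries lay above the WT median. The log2 difference was 0.27 ± 0.31 (95% interval -0.42 to 0.96; edgeR adjusted p = 0.782), and 0.67 without bulk WT 5 (edgeR adjusted p = 0.110). Limma voom, which down-weights libraries that vary more, called it at 0.75 (adjusted p = 0.0210), in a fit that called 19.5% of 17258 genes, among them 9 of the 10 macrophage markers, all higher. The 5 leukocyte markers summed to 956 CPM in bulk WT 5, 733 CPM in bulk WT 3 and 450.0 to 459 CPM in bulk WT 1, 2 and 4. In bulk IL33KO libraries they summed to 510 to 945 CPM. With their score as a covariate the log2 difference of Csf2ra was 0.13 ± 0.19. The part of leukocyte content in the bulk Csf2ra values was not tested. The difference of the genotype effects between sorted and bulk material was -0.66 on the log2 scale (95% interval -1.40 to 0.08; edgeR adjusted p = 0.463). No member passed that test in edgeR, where 0% of 18145 genes did, and no member had an unadjusted p under 0.05, which 11.2% of genes had. DESeq2 and limma on the scaled counts called none. Limma voom called 1 of 6, Csf2ra (log2 -1.14, adjusted p = 0.00526), in a fit that called 18.8% of all genes, a share close to that of the members.

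Csf2rb (chr15:78325752-78353847, plus strand), the shared beta chain, had the most counts of the members in sorted leukocytes, although per kb of exon its libraries overlapped those of Csf2ra. Sorted WT libraries held 524, 492, 532, 413 and 424 CPM, and sorted IL33KO libraries 413, 485, 509, 537 and 408 CPM. Both genotypes covered the same range, with a log2 difference of -0.01 (95% interval -0.25 to 0.23; edgeR adjusted p = 0.986), narrower than for any ligand in these cells. Bulk WT libraries held 42.6, 40.6, 45.3, 43.6 and 72.5 CPM, and bulk IL33KO libraries 59.5, 44.4, 38.1, 49.6 and 60.5 CPM. Bulk WT 5 was the highest and the genotypes overlapped (log2 0.03, 95% interval -0.36 to 0.42). Both receptor chains were concentrated in sorted material of WT hosts, Csf2ra 9.93-fold (log2 3.31 ± 0.27) and Csf2rb 9.75-fold (log2 3.29 ± 0.17), with edgeR adjusted p = 4.49e-09 and 2.23e-11. In IL33KO hosts the folds were 6.29 for Csf2ra and 9.33 for Csf2rb. For comparison, the 5 leukocyte markers had a median log2 difference of 3.40 in WT and 3.17 in IL33KO hosts. The ratio of Csf2ra to Csf2rb per kb was 0.988 ± 0.177 in sorted WT and 0.775 ± 0.177 in sorted IL33KO libraries (SD, n = 5; exact two-sided permutation p = 0.0794, unadjusted). In bulk it went the other way, with 0.908 ± 0.289 in WT and 1.14 ± 0.0782 in IL33KO libraries (exact two-sided permutation p = 0.143, unadjusted). The ratio of Csf2rb to Csf2rb2 per kb was 1.396 ± 0.109 in bulk WT and 1.18 ± 0.125 in bulk IL33KO libraries (exact two-sided permutation p = 0.0317, unadjusted, 1 of the 6 ratio tests), and 1.51 ± 0.198 and 1.46 ± 0.104 in sorted libraries (exact two-sided permutation p = 0.730, unadjusted). Csf2rb and Csf2rb2 have near-identical stretches, and 17.1% of the 50-base words of Csf2rb transcripts also occur in Csf2rb2, so reads there may be lost or split.

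Counted together, the members' median log2 difference between IL33KO and WT hosts was -0.19 in sorted leukocytes, with 6 of 6 below 0, and 0.09 in bulk tumour, with 5 of 6 above 0. The medians over all genes tested were 0.02 and 0.01. In sorted libraries 1 of 6 members (Csf2ra) had an unadjusted edgeR p under 0.05, where 12.9% of genes did. DESeq2, which called 3.38% of genes there, called that 1. Limma voom, which called 2.35%, and limma on the deposited scaled counts called 0. In bulk libraries no member had an unadjusted p under 0.05, where 6.36% of genes did. DESeq2, which called 0.29% of genes there, and limma on the scaled counts called 0. Limma voom called 1 of 6, in a fit that called 19.5% of genes. Between sorted and bulk material, 3 members were higher and 2 lower without overlap of the groups in each genotype, against 26.2% and 24.3% of all genes in WT and 24.6% and 24.2% in IL33KO hosts.

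**Figure D3:**
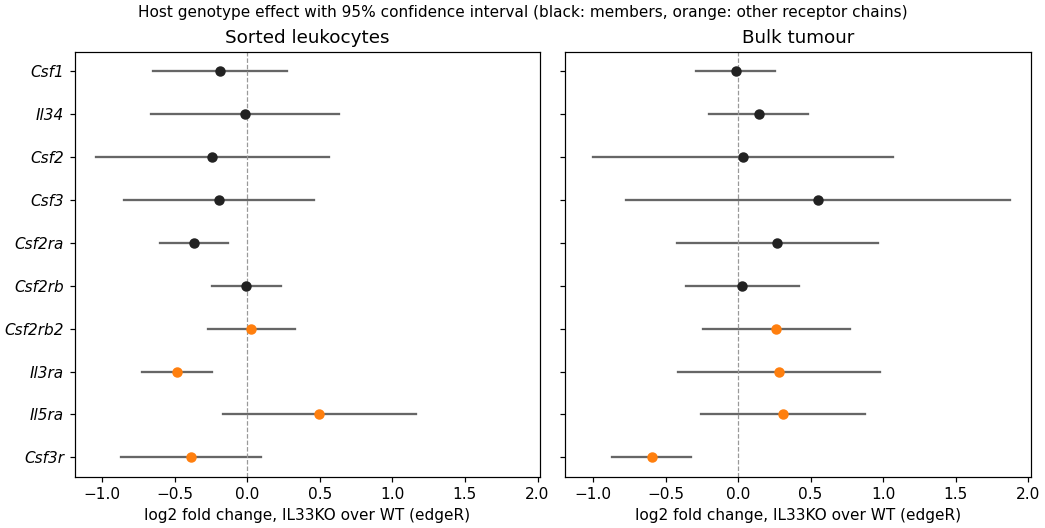
Log2 fold change of IL33KO over WT hosts from edgeR (points) with its 95% confidence interval (lines) in sorted leukocytes and bulk tumour, members in black and other receptor chains in orange. Among the members only the sorted Csf2ra interval, from -0.60 to -0.13, leaves out 0, and Csf2 and Csf3 have the widest intervals.

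The remaining receptor chains of the family showed where the members' pattern was shared. Il3ra, the alpha chain of the interleukin 3 receptor and a partner of both beta chains, was 29.4, 28.7, 34.4, 36.2 and 32.0 CPM in sorted WT and 23.4, 21.8, 18.3, 22.9 and 27.3 CPM in sorted IL33KO libraries. The groups did not overlap, as was the case for 2.66% of all genes in this direction. Its log2 difference was -0.49 ± 0.11 (SE; exact two-sided permutation p = 0.00794, the smallest these libraries allow, 1 of 12 such tests over genes outside the members), and it did not pass across all genes (edgeR adjusted p = 0.163). Il5ra, the interleukin 5 alpha chain found on eosinophils, was 0.50 on the same scale (edgeR adjusted p = 0.523), and the second beta chain gene Csf2rb2 was 0.03 (0.958). Csf1r, the receptor for CSF1 and IL-34, was -0.20 (edgeR adjusted p = 0.596), and 15.1% of its exon bases overlap a gene on the other strand. In bulk tumour the G-CSF receptor gene Csf3r was 44.7, 43.8, 42.0, 44.3 and 51.3 CPM in WT and 27.5, 38.4, 30.0, 24.6 and 30.1 CPM in IL33KO libraries. These groups did not overlap either, which held for 0.301% of genes in this direction, and the log2 difference was -0.60 ± 0.12 (edgeR unadjusted p = 0.00052, adjusted p = 0.724; exact permutation p = 0.00794). Neutrophil markers, a list of 10 that includes Csf3r, summed to 237 to 380 CPM in bulk WT and to 159 to 210 CPM in 4 of 5 bulk IL33KO libraries, with bulk IL33KO 5 at 562 CPM, the highest of the 10. Of the 10 markers 5 were above 0 in bulk, with a median log2 difference of -0.03, none was at 0 in any group, and none passed edgeR's test. The chemokine receptor gene Cxcr2 was lower without overlap of the groups (log2 -0.94, edgeR adjusted p = 0.724) and was called with Csf3r by DESeq2, and limma voom called both and Il1r2, all lower. The part of neutrophil content in the Csf3r values was not tested. None of the 5 other receptor chains passed edgeR's test between genotypes, and in each material 1 had an unadjusted p under 0.05. DESeq2 called Il3ra in sorted leukocytes and Csf3r in bulk tumour, where it called 0.29% of all genes, both lower in IL33KO hosts, and limma voom called none in sorted leukocytes and Csf3r and Csf1r in bulk tumour, the latter as higher.

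**Figure D4:**
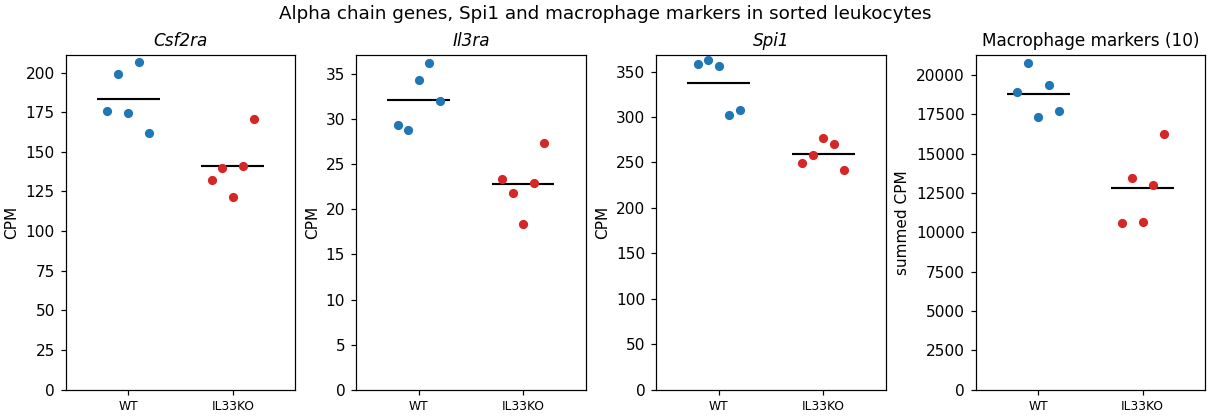
CPM of Csf2ra, Il3ra and Spi1 and the summed CPM of 10 macrophage markers in the 10 sorted libraries (linear axes from 0, points libraries in replicate order, bars means). IL33KO libraries lie under all WT libraries for Il3ra, Spi1 and the macrophage sum, while Csf2ra overlaps through IL33KO 5.

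Between materials, Csf1r was 10.9-fold, Csf3r 13.6-fold and Csf2rb2 8.97-fold higher in sorted than in bulk WT tumour, and all 3 passed in both genotypes. Il5ra went the other way, with 9.36 ± 4.00 CPM in sorted and 32.4 ± 9.98 CPM in bulk WT libraries (SD, n = 5; log2 -1.79, edgeR adjusted p = 4.14e-05). Of 6 eosinophil markers, a list that includes Il5ra, edgeR called 4 as higher and 1, Il5ra, as lower in sorted WT material. The shares of all genes were 33.7% and 34.3%. The 6 markers summed to 119 to 311 CPM in sorted WT and to 44.1 to 62.8 CPM in bulk WT libraries. Il3ra was 1.57-fold higher in sorted WT (edgeR adjusted p = 0.0301) and did not pass in IL33KO hosts (log2 -0.14, adjusted p = 0.647). The difference between these contrasts had an unadjusted edgeR p of 0.0404 and an adjusted p of 0.445. In the same test limma voom called Il3ra and Csf1r as lower, among the 18.8% of all genes it called. Of the remaining ligands, Il5 averaged 0.688 ± 0.663 CPM in sorted WT and 0.0726 ± 0.0828 CPM in bulk WT libraries (edgeR adjusted p = 0.00576). Il3 averaged 0.0214 CPM in sorted WT libraries, at or under the level of 3 counts, and was not tested.

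The genes around the pathway were read from lists chosen with earlier results of these data known. Of 13 JAK and STAT signalling genes none passed edgeR's test between genotypes in either material, with 5 of 13 above 0 in sorted libraries and a median log2 difference of -0.08, and 7 of 13 above 0 in bulk libraries with a median of 0.10. In bulk libraries none had an unadjusted edgeR p under 0.05, DESeq2 called 0, and limma voom called Cish and Socs1 as higher. In sorted libraries 4 had an unadjusted p under 0.05 and DESeq2 called 1, Socs3. The smallest p-values belonged to targets that cytokine receptors switch on: the feedback inhibitor Socs3 averaged 736 ± 62.9 CPM in sorted IL33KO and 918 ± 98.2 CPM in sorted WT libraries (log2 -0.31, edgeR adjusted p = 0.229). The kinase gene Pim1 was -0.46 (adjusted p = 0.268) and the survival gene Bcl2l1 -0.28 (0.287) in edgeR. Of 9 cytokines known to induce the factors, 8 were tested in sorted libraries, none passed in edgeR, DESeq2 or limma voom and 1 was above 0, with a median log2 difference of -0.36. An unadjusted edgeR p under 0.05 was found for 3 of them. Tnf was -0.73 (edgeR adjusted p = 0.297), Il1b -0.57 (0.309) and Il23a -0.93 (0.386). In bulk libraries 6 were tested and 3 were above 0, with a median of -0.05, none had an unadjusted edgeR p under 0.05, DESeq2 called 0, and limma voom called Il6 and Ifng as higher.

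Of 11 myeloid transcription factors none passed edgeR's test between genotypes, and 2 of 11 were above 0 in sorted against 11 of 11 in bulk libraries. Spi1, which encodes PU.1, was 359, 362, 356, 302 and 308 CPM in sorted WT and 249.1, 258, 277, 271 and 242 CPM in sorted IL33KO libraries. The groups did not overlap, with a difference of -0.37 ± 0.08 on the log2 scale (SE; adjusted p = 0.151 in edgeR; exact two-sided permutation p = 0.00794, unadjusted). Cebpb, a factor of emergency granulocyte production, differed by -0.75 on the log2 scale (edgeR adjusted p = 0.176), also without overlap. DESeq2 and limma voom each called Spi1 and Cebpb as lower in sorted IL33KO libraries, whereas limma voom called 8 of 11 as higher in bulk IL33KO libraries. All 11 were higher in sorted than in bulk material in both genotypes, as were 11 of the 13 signalling genes in WT and 10 in IL33KO hosts.

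Levels of different genes can be set side by side only per length of transcript. Per kb of exon, sorted WT leukocytes held 65.6 CPM of Csf2rb and 63.9 of Csf2ra, whose libraries overlapped, then 43.9 of Csf1, 5.59 of Csf2 and 2.12 of Il34, the last pair again overlapping, and 0.498 of Csf3. The order was the same in sorted IL33KO leukocytes, where Csf2ra, at 49.1 CPM per kb, overlapped both Csf2rb, at 64.6, and Csf1, at 38.2. Bulk WT tumour began with Csf1 at 10.9 CPM per kb and Il34 at 9.87, followed by Csf2rb at 6.72 and Csf2ra at 6.43, with Csf2 at 2.30 and Csf3 at 1.92 last, and each neighbour overlapped the next. Without bulk WT 5 the order was the same, with Csf2 at 1.42 and Csf3 at 1.17 CPM per kb, while Il34 no longer overlapped Csf2rb, nor Csf2ra Csf2. In bulk IL33KO tumour Il34, at 10.9, and Csf1, at 10.8, stood apart from the chains Csf2ra, at 7.82, and Csf2rb, at 6.93, and these from Csf3, at 2.80, and Csf2, at 2.36. On the scale of the longest transcript the first pair and the second pair of bulk IL33KO swap places within themselves, and the other 3 groups keep their order. The overlaps change on that scale. In bulk IL33KO libraries Csf2rb reached 12.3 and Csf2ra 11.4 CPM per kb, above the lowest Il34 value of 10.4. The ligands and the chains thus no longer stood apart there. In sorted IL33KO libraries the highest Csf2ra value, 75.0, lay under the lowest Csf2rb value, 83.2.

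**Figure D5:**
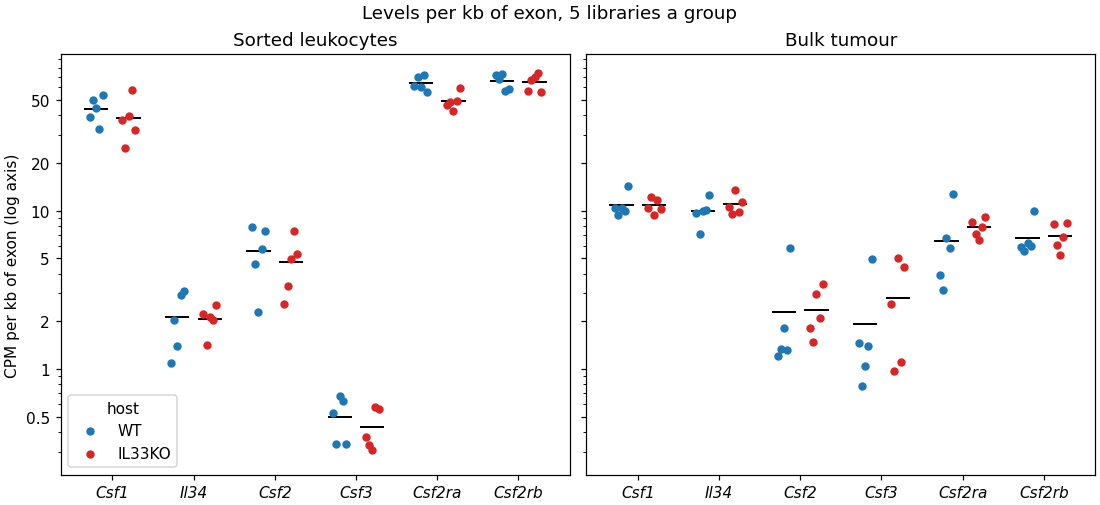
CPM per kb of exon (log axis) of the 6 members in sorted leukocytes and bulk tumour, points libraries, bars means of 5, blue WT and red IL33KO. Receptor chains and Csf1 lead in sorted leukocytes, at 38.2 to 65.6 CPM per kb, and Csf1 and Il34 lead in bulk tumour, at 9.87 to 10.9.

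The genes most like each member were ranked by Pearson's r of deviations from the group means over 20 libraries, among 12695 genes, as a description in which the points share libraries and depth. Csf2rb lay nearest to Csf2rb2 (r = 0.91), with which it shares sequence, and then to Pstpip2 (0.90) and Arl11 (0.88). Csf2ra lay nearest to Matk (0.95), Psmb10 (0.95) and Snx20 (0.94), and its r with Csf2rb was 0.64. Csf1 lay nearest to Cxcl3 (0.84), Bnip3 (0.79) and Pfkfb3 (0.77), and Il34 to Pacsin3 (0.95) and Urah (0.94). Csf2 lay nearest to Ebna1bp2 (0.90), Atf3 (0.89) and Psme2b (0.88), and Csf3 to Ckb (0.92), Sfn (0.87) and Cenpw (0.87). The ligands Csf1 and Il34 had an r of 0.24 with each other. Only 1 of the 18 neighbours, Atf3 for Csf2, was among the nearest 3 again when sorted or bulk libraries were ranked alone.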

How the data were processed

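Poly(A) RNA was measured with a stranded kit, per the labels' protocols. The authors deposited raw counts per gene from HTSeq and a further table of signal, which is the count over 1 scale factor per library credited to DESeq by its name; the submitters' processing notes name Picard, HTSeq, DESeq and mm10. An aligner, annotation release or strand setting is not given in the sources used here. Summary lines (26.1 to 40.5% of reads) were left out. Counts were fitted with edgeR 4.0.16 in R 4.3.3 (quasi-likelihood, TMM, filterByExpr, Benjamini-Hochberg over all genes, threshold 0.05), each material alone for the genotype contrasts and all 20 libraries for the others. DESeq2 1.42.0 and limma 3.58.1 were alternatives, as were size factors, no filter, a replicate block, covariates and leaving out libraries. Only the edgeR fit was tested on simulated counts, for the genotype contrasts and for sorted against bulk WT material. Log2 CPM used a prior count of 2, and exact permutation tests (scipy 1.17.1) ran over 252 assignments. Coordinates are GENCODE's on GRCm38. Members and lists were chosen with earlier results of these data known. Named were the members, the other receptor chains and ligands, up to 3 genes with the smallest p per list and comparison, and the 3 nearest genes per member among genes averaging at least 1 CPM, leaving out gene models, pseudogenes and receptor segments. Other marker lists were computed and are not described, and values of some genes that this rule named are not reported here. No replicates agreed within sampling noise. Whether a sorted and a bulk library came from the same tumour is not given, and contrasts between materials treat them as independent.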

Additional observations from a re-analysis of the deposited data

Results flagged for a closer look

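Within groups of 5 libraries, the highest or lowest value was set against the others by Dixon's test for 6 members in 4 groups. Of these 24 tests 4 stood out, where chance flags about 1 in 20, and all 4 were bulk WT 5. Its level was 75.2 CPM for Csf1, 4.64 CPM for Csf2, 6.97 CPM for Csf3 and 72.5 CPM for Csf2rb, each the highest of its group. The gap to the next library covered 0.774, 0.865, 0.836 and 0.854 of the range of the group. That library also had 9715 CPM of summed acinar markers and 956 CPM of summed leukocyte markers, the highest of the bulk WT libraries, and their part in the member values was not tested by these comparisons.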

How the results depend on the processing

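Between sorted and bulk material 6 of 6 members were called under all 27 alternatives in WT hosts, and 5 or 6 in IL33KO hosts, where Csf2 was the member that varied. Between genotypes the count of members called was 0 under 18 of 19 alternatives in each material; it was 1 with DESeq2 in sorted leukocytes and 1 with limma voom in bulk tumour. The count for the difference of the genotype effects was 1 with limma voom, whose fit called 3406 of 18145 genes there, and 0 under the other 26. Values near 0 turned sign. In sorted leukocytes Il34 was 0.0536 on the deposited scaled counts and 0.0208 with the acinar covariate, an alternative chosen after seeing the data; Csf3 was 0.0894 and Csf2rb 0.0362 with limma voom, and Csf3 was 0.0249 without sorted WT 3 and sorted IL33KO 3. In bulk tumour Csf1 was 0.117 with limma voom and 0.00167 with the acinar covariate, and with the leukocyte covariate Csf2 was -0.0299 and Csf2rb -0.117. Leaving out each library in turn gave -0.180 to 0.162 for Il34 and -0.0591 to 0.0428 for Csf2rb in sorted leukocytes, -0.0806 to 0.0982 for Csf1, -0.136 to 0.724 for Csf2 and -0.0445 to 0.213 for Csf2rb in bulk tumour, and -0.339 to 0.000308 for Il34 and -0.249 to 0.00955 for Csf2rb in the difference of effects. None of these passed the test in any of these fits. Counts of all genes called depended on the tool: sorted genotype calls were 2 in edgeR, 566 in DESeq2 and 393 in limma voom, and bulk calls 0, 50 and 3364. Counting error bears most on Csf3 in sorted libraries, with 19 to 50 counts.

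Replicate numbers were not taken as pairs in the main fits. Same-numbered libraries had correlations of -0.36 to 0.70, and 9 of 20 pairs were over 0.1. Sorted and bulk libraries of the same host genotype ranged from -0.36 to 0.33. WT and IL33KO libraries of the same material, which come from different hosts, ranged from -0.20 to 0.70. These correlations cannot tell whether a number marks a shared tumour or a batch. With the replicate block, the Il34 value in sorted leukocytes was 0.0599, Csf2 in IL33KO hosts was called between materials (adjusted p = 0.0274 in edgeR), and the number of members called between genotypes was 0 in both materials. In 6 of the 20 pairs the library correlated best with its own number.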
